A study of Mus musculus with 9 samples.

Results

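Interferon-stimulated genes are the antiviral and immune genes that cells switch on when they meet an interferon. The 37 genes described here were chosen by symbol, as well-known members of this class, and all 37 were among the 24008 genes listed for these livers. Of these, 36 were among the 14379 genes with enough reads to be tested, and the remaining gene, Isg15, was listed at 0 or 1 read in every library.

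The RNA came from whole liver pieces of male mice on a C57BL/6J background that were 8 weeks old at the start and were fed a high fat and high carbohydrate diet to induce nonalcoholic steatohepatitis (NASH). The 3 control samples (genotype WT in the labels, taken as the Flox mice of the study) carried the IRF4 flox/flox alleles without deletion, the 3 F4MKO samples lacked IRF4 in skeletal muscle through Myl-Cre, and the 3 F4MKO + FSTL1 samples had the same deletion and overexpressed FSTL1, a protein that muscle secretes. FSTL1 was delivered into the gastrocnemius by an adeno-associated virus of serotype 8 with the muscle creatine kinase promoter, the other groups received a GFP virus, and the livers were taken 4 weeks later. The methods give both 24 and 12 weeks of diet before the injection, and the labels name no vector. They state neither that each sample is a separate mouse nor that no tissue was pooled, so the spread between samples may in part be technical.

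Interferons act through receptors that switch on the kinases JAK1, JAK2 and TYK2, which phosphorylate STAT proteins. Type I and type III interferons act through a complex that includes STAT2 and IRF9 and binds the interferon-stimulated response element (ISRE), and interferon gamma acts through the gamma-activated sequence (GAS). In liver, hepatocytes, macrophages, endothelial cells and lymphocytes can all respond, and the induced proteins sense, modify or destroy foreign RNA, tag proteins, or attack vacuoles that hold microbes.

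Total counts ran from 20656976 to 24322984 per library. Hepatocyte marker genes summed to between 61510 and 91325 CPM (counts scaled to a fixed library size) in the 9 libraries. The 5 skeletal muscle markers with a row summed to 0.892 to 1.39 CPM in Flox, 0.838 to 1.03 in F4MKO and 1.21 to 1.62 in F4MKO + FSTL1. Of these, Acta1, Ckm and Myh4 had at most 3 counts in any library. Mylpf, the 1 muscle marker tested, was higher in F4MKO + FSTL1 than in F4MKO without overlap (log2 fold change 0.81). It was not called at the thresholds given below. Liver Irf4 had 101 to 132 counts in Flox, 120 to 130 in F4MKO and 10, 92 and 116 in F4MKO + FSTL1, which does not check the genotype since the deletion was in muscle. F4MKO replicate 1 stood apart from the other libraries, with the lowest hepatocyte sum (61510 CPM) and the highest cholangiocyte sum (430 CPM, against 36.1 to 223 elsewhere). In whole tissue, fewer cells of a type and less RNA per cell cannot be told apart.

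The promoters of these genes are shown first, since many genes of the class are induced through the ISRE. RefSeq promoters of GRCm38.p6, from 250 bases before to 50 bases after a gene's start, were at hand for 27 of the 37 genes. The ISRE core, searched as GAAANNGAAA on both strands, was present in 17 of these 27 (63.0%) and in 4.0% of all 27025 genes with a promoter in the same table. The GAS letters, TTCNNNGAA, were present in 7 of the 27 (25.9%), and in 9.6% of all genes. A core of this kind lay in the promoters of 5 of the 10 genes that later proved lower in F4MKO + FSTL1 than in F4MKO, and of 11 of the 16 tested genes that did not. Windows around the core follow for 4 genes that fell (Oas1a, Oas3, Gbp2, Gbp3) and for 5 that did not pass the test or could not be tested (Ifit1, Bst2, Stat2, Irgm1, Isg15). They read 5′ to 3′ along the gene's strand with every base of a core in capitals, and a match is a description of the letters only.
Oas1a, chr5:120907511-120907570, minus strand: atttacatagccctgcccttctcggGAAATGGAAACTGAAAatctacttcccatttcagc
Oas3, chr5:120777700-120777759, minus strand: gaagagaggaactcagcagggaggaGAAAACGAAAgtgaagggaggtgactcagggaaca
Gbp2, chr3:142620579-142620638, plus strand: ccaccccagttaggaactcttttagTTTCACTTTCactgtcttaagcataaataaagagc
Gbp3, chr3:142559974-142560033, plus strand: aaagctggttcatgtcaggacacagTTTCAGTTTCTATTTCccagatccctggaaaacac
Ifit1, chr19:34640760-34640819, plus strand: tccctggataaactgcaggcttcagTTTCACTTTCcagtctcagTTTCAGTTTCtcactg
Bst2, chr8:71537568-71537627, minus strand: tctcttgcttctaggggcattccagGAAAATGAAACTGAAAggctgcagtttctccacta
Stat2, chr10:128270251-128270310, plus strand: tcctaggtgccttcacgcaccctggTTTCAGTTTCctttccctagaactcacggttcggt
Irgm1, chr11:48871416-48871475, minus strand: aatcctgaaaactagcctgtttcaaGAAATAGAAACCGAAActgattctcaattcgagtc
Isg15, chr4:156200862-156200921, minus strand: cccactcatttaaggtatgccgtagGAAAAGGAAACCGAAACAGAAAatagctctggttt
The longest unbroken run of cores in these windows was that of Isg15. Overlapping cores were also present in Oas1a, Gbp3, Bst2 and Irgm1, so the letters alone did not separate the genes that fell from those that did not.

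Levels differed widely between the genes. Per kilobase of exon, Bst2 (tetherin, which holds budding viruses at the cell surface) was the highest, at 317 CPM per kilobase in Flox, 278 in F4MKO and 204 in F4MKO + FSTL1. Ifi27, a small membrane protein, followed at 123, 102 and 77.3 CPM per kilobase. Iigp1, an immunity-related GTPase, reached 70.3, 56.8 and 69.8, and Ifi35 20.1, 18.0 and 20.5 CPM per kilobase. At the other end of the 36 tested genes, the GTPase Ifi47 and the peptide transporter subunit Tap1 were at 0.228 and 0.235 CPM per kilobase in Flox. These values rest on the GENCODE exons of each gene and on group means, and the order of neighbouring genes was not tested.

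Whether loss of muscle IRF4 changed these genes in the liver was asked by comparing F4MKO with Flox. None of the 36 tested genes was called at an adjusted p under 0.05 and a fold change above 1.5, by edgeR's quasi-likelihood test or by DESeq2. Over all genes, 39 were called in either direction (0.271%). An unadjusted p under 0.05 was reached by 3 of the 36, and by 2424 of all 14379 genes tested. The log2 fold changes lay above 0 for 22 genes and below it for 14, with a median of 0.04, beside 0.00 over all genes tested. The groups did not overlap for 2 genes, both lower in F4MKO (Parp9 and Iigp1), where 21.8% of all genes were without overlap in one direction or the other.

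None of the largest differences from Flox in either direction passed the adjusted threshold. Ifi47 was at 0.446, 0.533 and 0.710 CPM in Flox and at 1.03, 1.05 and 0.519 CPM in F4MKO (log2 fold change 0.62 ± 0.34 SE, edgeR adjusted p = 0.39). Rsad2 (viperin, which makes a chain-terminating nucleotide) was at 16.2, 7.74 and 10.2 CPM in Flox and at 31.0, 8.63 and 11.3 CPM in F4MKO (0.59 ± 0.46 SE, edgeR adjusted p = 0.54). The high Rsad2 value was that of F4MKO replicate 1, without which the log2 fold change was -0.19. Samd9l, an antiviral protein that restrains translation, was at 16.5, 23.4 and 18.3 CPM in Flox and at 37.4, 27.6 and 21.5 CPM in F4MKO (0.57 ± 0.21 SE, edgeR adjusted p = 0.20). Tap1 was at 1.96, 1.27 and 0.621 CPM in Flox and at 0.424, 0.586 and 1.16 CPM in F4MKO (-0.83 ± 0.56 SE, edgeR adjusted p = 0.48). Iigp1 was at 391, 399 and 438 CPM in Flox and at 357, 307 and 327 CPM in F4MKO, and the groups did not overlap (-0.31 ± 0.11 SE, edgeR adjusted p = 0.19). Dhx58, which encodes the RNA sensor LGP2, was at 14.0, 16.2 and 19.0 CPM in Flox and at 14.8, 12.2 and 13.1 CPM in F4MKO (-0.30 ± 0.17 SE, edgeR adjusted p = 0.40).

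**Figure D1:**
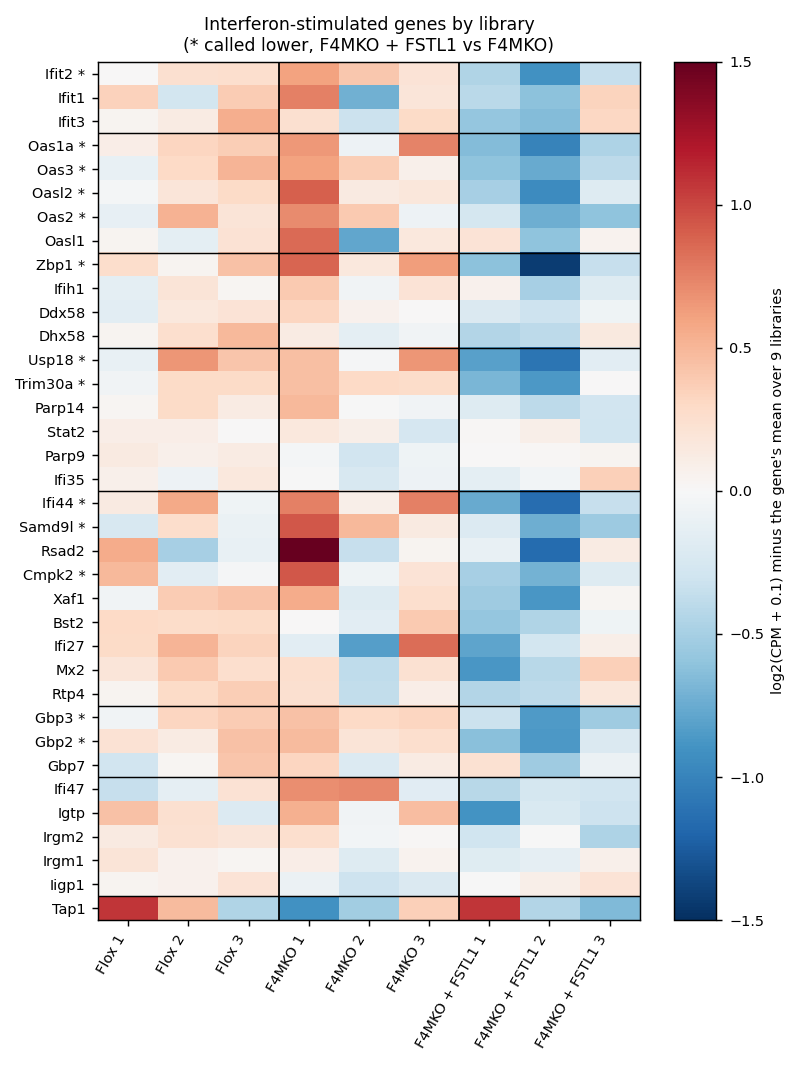
Relative level of the 36 tested interferon-stimulated genes (rows, grouped by role) in the 9 libraries (columns), as log2(CPM + 0.1) minus the gene's mean, from blue (low) to red (high). F4MKO replicate 1 was the highest library for 21 genes and F4MKO + FSTL1 replicate 2 the lowest for 20.

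FSTL1 overexpression was accompanied by lower levels of many of these genes in F4MKO liver. In F4MKO + FSTL1 against F4MKO, 13 of the 36 tested genes were called lower (36.1%) and 0 were called higher, where 11.2% of all genes were called lower and 3.21% higher. The 13 were Zbp1, Ifi44, Oas1a, Usp18, Samd9l, Ifit2, Oas3, Oasl2, Gbp3, Oas2, Cmpk2, Gbp2 and Trim30a. Log2 fold changes lay below 0 for 32 of the 36, with a median of -0.45, beside 0.01 over all genes. Without overlap, 17 genes were lower and 2 higher (Parp9 and Iigp1), and 21.1% of all genes were lower without overlap. The share of all genes that were higher without overlap was not computed, so the 2 cannot be weighed. DESeq2 called the same 13 genes.

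The calls were unevenly spread over the roles and levels. The OAS family had 4 of 5 genes called, the guanylate-binding proteins 2 of 3, the IFIT family and the other antiviral proteins 1 of 3 and 3 of 9, the ISG15 system and signalling regulators 2 of 6, and the RNA and nucleic acid sensors 1 of 4. None of the 5 immunity-related GTPases was called, with 4 at an unadjusted p under 0.05 (5080 of all 14379 genes were), nor was Tap1. All 13 calls were among the 26 genes with a mean under 25 CPM, a range in which 15.2% of all genes were called lower. Among the 10 genes at 25 CPM or more, 0 were called, beside 2.82% of all genes at such levels. This division by level was made after the values were seen.

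Among the IFIT proteins, which bind foreign RNA ends and block their translation, Ifit2 fell. Its levels were 5.80, 6.84 and 6.92 CPM in Flox, 8.88, 7.66 and 6.67 CPM in F4MKO, and 4.21, 3.03 and 4.54 CPM in F4MKO + FSTL1. Every F4MKO + FSTL1 sample lay below every sample of the other groups, and the fall from F4MKO was 1.97-fold (log2 fold change -0.98 ± 0.18 SE, edgeR adjusted p = 0.00430). Ifit1 was at 11.3, 7.33 and 11.6 CPM in Flox, 15.1, 5.36 and 10.1 CPM in F4MKO, and 6.68, 5.77 and 11.2 CPM in F4MKO + FSTL1. These ranges overlapped, and the difference did not pass the test (-0.38 ± 0.35 SE, edgeR adjusted p = 0.47). Ifit3 had a log2 fold change of -0.34 ± 0.26 SE and did not pass either. It shares 18.5% of its 150-base stretches with Ifit3b, so its counts are uncertain.

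The 2′-5′ oligoadenylate synthetases make the messenger that activates RNase L, which cuts RNA. Oas1a was at 8.16, 9.55 and 9.81 CPM in Flox, 11.99, 7.20 and 12.8 CPM in F4MKO, and 4.81, 3.75 and 5.48 CPM in F4MKO + FSTL1. The 3 F4MKO + FSTL1 samples lay below the other 6, and the gene fell 2.28-fold from F4MKO (log2 fold change -1.19 ± 0.22 SE, edgeR adjusted p = 0.00427). It shares 32.4% of its 150-base stretches with Oas1g, so reads could not always be assigned to one of them. Oasl2, a family member with ubiquitin-like domains, was at 13.02, 15.1 and 16.2 CPM in Flox, 24.8, 14.6 and 14.97 CPM in F4MKO, and 9.39, 6.82 and 11.5 CPM in F4MKO + FSTL1. The samples with FSTL1 were again below all others (-0.97 ± 0.23 SE, edgeR adjusted p = 0.0126). Oas3 and Oas2 fell by 0.98 and 0.91 on the log2 scale (edgeR adjusted p = 0.0103 and 0.0161). Oasl1 did not pass the test, with 34.2, 11.1 and 21.2 CPM in F4MKO and 21.9, 12.5 and 19.6 CPM in F4MKO + FSTL1.

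Of the sensors, Zbp1, which detects Z-form nucleic acid and can set off cell death, showed the largest fall of the 36 genes. It was at 10.3, 8.77 and 11.6 CPM in Flox, 15.7, 9.51 and 13.3 CPM in F4MKO, and 5.56, 3.12 and 6.69 CPM in F4MKO + FSTL1. No F4MKO + FSTL1 sample reached the lowest of the other 6, and the fall from F4MKO was 2.51-fold (log2 fold change -1.33 ± 0.26 SE, edgeR adjusted p = 0.00505). The cytosolic RNA helicases moved less. Ddx58, which encodes RIG-I, was at 28.0, 34.8 and 36.1 CPM in Flox, 39.3, 32.7 and 31.5 CPM in F4MKO, and 27.0, 25.2 and 29.8 CPM in F4MKO + FSTL1. The F4MKO + FSTL1 values lay below those of F4MKO without passing the test (-0.34 ± 0.12 SE, edgeR adjusted p = 0.077). Ifih1 (MDA5) and Dhx58 had log2 fold changes of -0.39 ± 0.16 SE and -0.19 ± 0.17 SE.

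ISG15 is a ubiquitin-like protein that is attached to other proteins, and USP18 removes it and blocks the type I receptor. Isg15 had 0, 1 and 0 counts in Flox, 0 in all 3 F4MKO libraries and 1 in each F4MKO + FSTL1 library, all at or under a floor of 3 counts, so no fold change is given. The reason for so few counts could not be settled, since the annotation and the treatment of reads with several matches are not given. The counts therefore do not show that the gene was silent. Usp18 was at 10.6, 18.2 and 15.4 CPM in Flox, 15.7, 11.3 and 18.3 CPM in F4MKO, and 6.49, 5.33 and 10.2 CPM in F4MKO + FSTL1. It fell 2.06-fold from F4MKO without overlap (log2 fold change -1.04 ± 0.26 SE, edgeR adjusted p = 0.0177), although the call was lost in 4 of the 9 fits that each left out 1 library, with log2 fold changes from -1.34 to -0.85. Trim30a, a regulator of inflammatory signalling, fell 1.76-fold (-0.82 ± 0.20 SE, edgeR adjusted p = 0.0155).

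The remaining signalling genes did not pass both thresholds. Stat2, the subunit that gives the ISRE-binding complex its transactivation domain, was at 70.5, 70.1 and 65.8 CPM in Flox, 73.0, 69.9 and 55.0 CPM in F4MKO, and 66.3, 69.8 and 53.4 CPM in F4MKO + FSTL1. The 3 ranges overlapped almost fully (log2 fold change -0.06 ± 0.13 SE, edgeR adjusted p = 0.76), and its 95% interval against F4MKO ran from -0.34 to 0.22. Parp14, a mono-ADP-ribosyltransferase, was 1.37-fold lower with an edgeR adjusted p of 0.040, below the fold threshold. Parp9, which works with the ubiquitin ligase DTX3L, and Ifi35 had log2 fold changes of 0.15 ± 0.09 SE and 0.18 ± 0.13 SE. Antisense or neighbouring genes overlap 9.4% of the exons of Parp9 and 16.8% of those of Ifi35, and the use of strand in the counting is not given in the sources used here.

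Among the other antiviral proteins, Ifi44, Samd9l and Cmpk2 fell. Ifi44 was at 7.36, 9.92 and 6.39 CPM in Flox, 11.3, 7.12 and 11.3 CPM in F4MKO, and 3.92, 2.98 and 5.22 CPM in F4MKO + FSTL1. All samples with FSTL1 were below the other 6, a 2.46-fold fall from F4MKO (log2 fold change -1.30 ± 0.25 SE, edgeR adjusted p = 0.00508). Samd9l was at 17.0, 11.7 and 13.4 CPM in F4MKO + FSTL1, below the 21.5 to 37.4 CPM of F4MKO and overlapping the 16.5 to 23.4 CPM of Flox (-1.04 ± 0.21 SE against F4MKO, edgeR adjusted p = 0.00637). Cmpk2, a mitochondrial nucleotide kinase encoded next to Rsad2, fell 1.86-fold (-0.90 ± 0.27 SE, edgeR adjusted p = 0.0370).

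Rsad2, Bst2 and Ifi27 did not pass the test against F4MKO. Rsad2 was at 10.2, 4.90 and 12.01 CPM in F4MKO + FSTL1, overlapping F4MKO (log2 fold change -0.92 ± 0.47 SE, edgeR adjusted p = 0.18), and the log2 fold change was -0.15 without F4MKO replicate 1. Bst2 was at 289, 284 and 285 CPM in Flox, 236, 211 and 307 CPM in F4MKO, and 157, 172 and 224 CPM in F4MKO + FSTL1. Its samples with FSTL1 lay below all Flox samples and overlapped F4MKO (-0.45 ± 0.16 SE, edgeR adjusted p = 0.068). Ifi27 was at 169, 197 and 174 CPM in Flox, 124, 77.7 and 246 CPM in F4MKO, and 79.7, 114 and 146 CPM in F4MKO + FSTL1, and its F4MKO samples spanned those of both other groups (-0.40 ± 0.34 SE, edgeR adjusted p = 0.44). Xaf1, a promoter of apoptosis, had a log2 fold change of -0.66 ± 0.25 SE (edgeR adjusted p = 0.079). Rtp4, a chaperone of receptors that also binds viral RNA, and Mx2, which RefSeq lists as a transcribed pseudogene, had log2 fold changes of -0.21 ± 0.19 SE and -0.30 ± 0.28 SE.

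**Figure D2:**
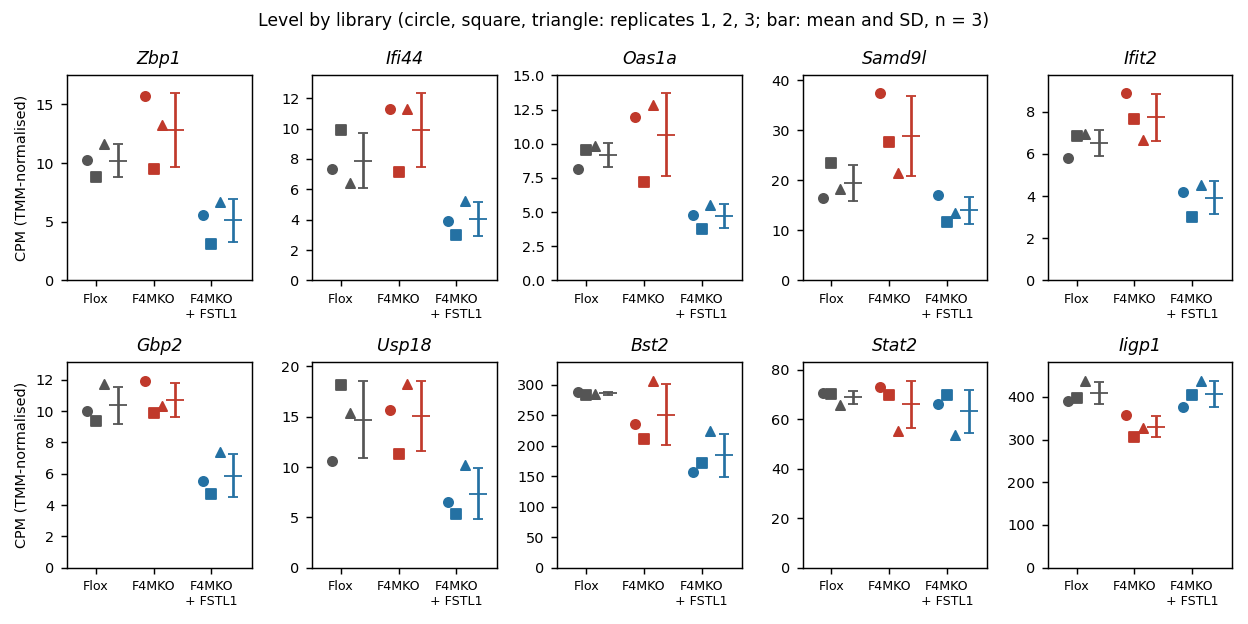
CPM after TMM normalisation in each library for 10 genes, with the mean and SD of 3 samples beside the points. Zbp1, Ifi44, Oas1a, Ifit2, Gbp2 and Usp18 were lower in every F4MKO + FSTL1 sample than in any other, Samd9l was lower than in F4MKO only, and Stat2 overlapped in all groups.

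Guanylate-binding proteins and immunity-related GTPases assemble on vacuoles that hold microbes. Gbp2 was at 9.99, 9.38 and 11.7 CPM in Flox, 11.96, 9.88 and 10.3 CPM in F4MKO, and 5.56, 4.71 and 7.36 CPM in F4MKO + FSTL1. The FSTL1 samples were below the other 6 and the fall from F4MKO was 1.83-fold (log2 fold change -0.87 ± 0.17 SE, edgeR adjusted p = 0.0054). Gbp3 fell 1.89-fold (-0.92 ± 0.17 SE, edgeR adjusted p = 0.00406). Gbp7 had a log2 fold change of -0.20 ± 0.22 SE, and 11.3% of its exon length overlaps another gene on the same strand.

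The immunity-related GTPases held no call, and they ran in both directions. Igtp (Irgm3), one of the regulatory GTPases of this family, was at 2.27, 1.97 and 1.42 CPM in Flox, 2.44, 1.59 and 2.32 CPM in F4MKO, and 0.841, 1.39 and 1.31 CPM in F4MKO + FSTL1. It lay lower without overlap and just missed the threshold (log2 fold change -0.85 ± 0.28 SE, edgeR adjusted p = 0.056). Irgm1, a regulator of the same GTPases and of autophagy, was at 21.6, 19.7 and 19.3 CPM in Flox, 20.2, 16.5 and 19.6 CPM in F4MKO, and 16.6, 17.2 and 19.8 CPM in F4MKO + FSTL1, with overlapping ranges (-0.07 ± 0.11 SE, edgeR adjusted p = 0.71). Irgm2 and Ifi47 had log2 fold changes of -0.33 ± 0.14 SE and -0.91 ± 0.36 SE. Iigp1 was the opposite, at 377, 405 and 438 CPM in F4MKO + FSTL1, above all F4MKO samples (0.30 ± 0.11 SE, edgeR adjusted p = 0.070). Tap1, which loads peptides for class I antigen presentation, was at 1.96, 0.625 and 0.522 CPM in F4MKO + FSTL1 and overlapped both other groups (0.54 ± 0.58 SE against F4MKO, edgeR adjusted p = 0.54).

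**Figure D3:**
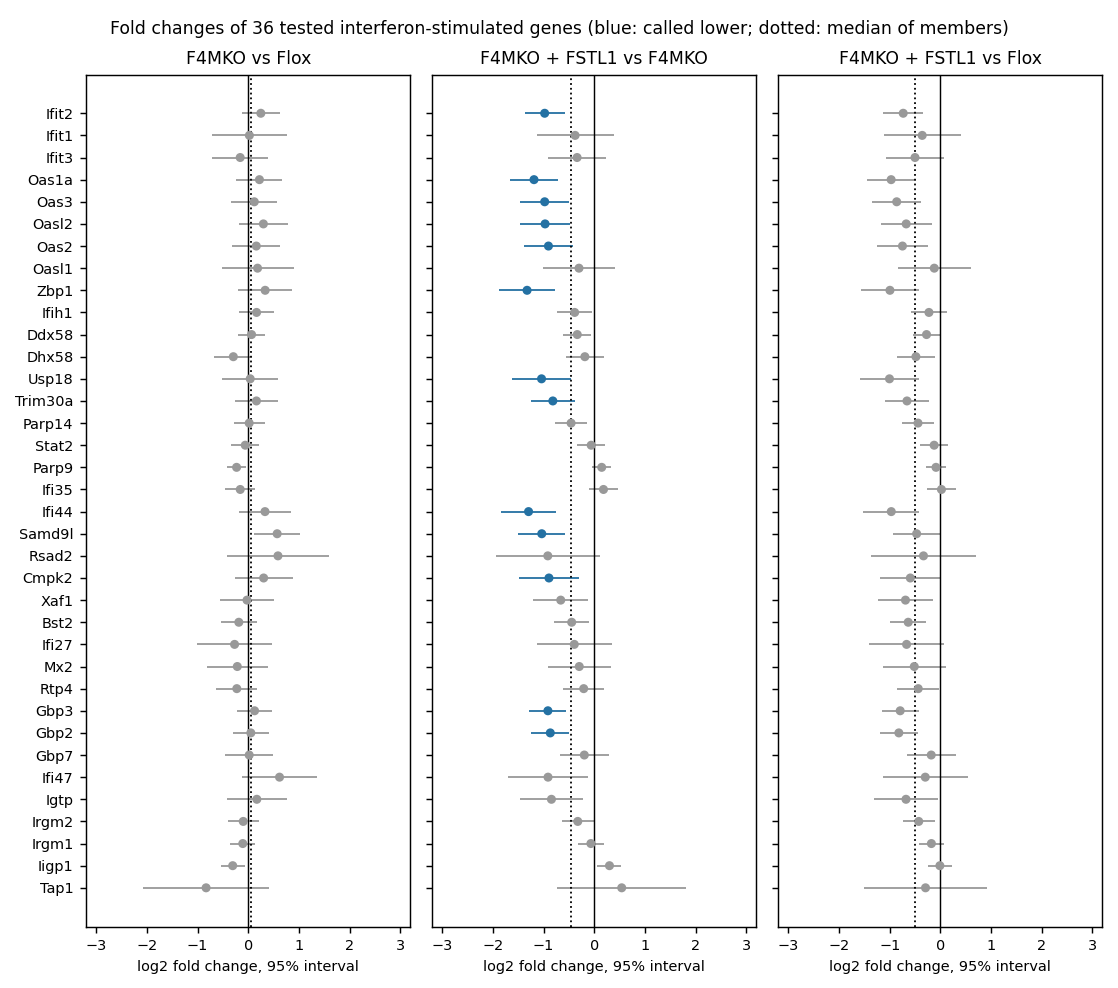
Log2 fold change (points) with its 95% interval (lines) for the 36 tested genes in the 3 comparisons, with the median of the genes dotted. Blue marks the 13 genes called lower in F4MKO + FSTL1 against F4MKO, and the medians were 0.04, -0.45 and -0.49 from left to right.

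The number of calls depended on single libraries. Leaving out F4MKO replicate 1, the highest library for 21 of the genes, left 9 calls, and leaving out F4MKO + FSTL1 replicate 2, the lowest for 20, left 8. Calls over all genes also dropped in these fits, from 2070 to 1335 and 1295. Without F4MKO + FSTL1 replicate 3 there were 16 calls, beside 2031 over all genes, and 13 of the 16 were those named above. Ifit2, Oas1a, Oas3, Zbp1, Samd9l, Ifi44, Gbp2 and Gbp3 were called in all 9 fits that each left out 1 library. A test against the 1.5-fold threshold itself (glmTreat) retained 3 genes, Ifi44, Oas1a and Zbp1.

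In F4MKO + FSTL1 against Flox, no interferon-stimulated gene was called by edgeR, while nearly all lay on the lower side. Over all genes 1 was called (0.00695%). Log2 fold changes were below 0 for 35 of the 36, with a median of -0.49, beside 0.00 over all genes. An unadjusted p under 0.05 was found for 19 of the 36, and for 1924 of all 14379 genes tested. Without overlap, 17 genes were lower, where 10.7% of all genes were lower without overlap. DESeq2 called 9 of them lower, where it called 1.64% of all genes lower: Bst2, Gbp2, Gbp3, Ifi44, Ifit2, Oas1a, Oas3, Usp18 and Zbp1. This comparison shares its F4MKO + FSTL1 samples with the one above and its Flox samples with the first, so the 3 comparisons are not independent.

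The lowest values against Flox were those of Usp18, Zbp1 and Oas1a. Usp18 differed by a log2 fold change of -1.005 ± 0.27 SE (edgeR adjusted p = 0.15), Zbp1 by -0.995 ± 0.26 SE (edgeR adjusted p = 0.14) and Oas1a by -0.97 ± 0.22 SE (edgeR adjusted p = 0.11). In each of the 3 genes all F4MKO + FSTL1 samples lay below all Flox samples. At the upper end, Ifi35 was at 35.2, 31.7 and 37.4 CPM in Flox and at 30.2, 32.7 and 43.0 CPM in F4MKO + FSTL1 (0.02 ± 0.13 SE, edgeR adjusted p = 0.97), and Iigp1 was at -0.01 ± 0.11 SE (edgeR adjusted p = 0.99). Parp9 was at 67.0, 64.3 and 66.7 CPM in Flox and at 61.3, 62.2 and 63.0 CPM in F4MKO + FSTL1 (-0.09 ± 0.09 SE, edgeR adjusted p = 0.76). Its groups did not overlap, at a difference far under the fold threshold.

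The genes that produce and relay the interferon signal were examined in the same fit. Of 57 such genes 43 had a row and 38 were tested. In F4MKO + FSTL1 against F4MKO 9 were called lower (23.7%) and 1 higher (2.63%), beside 11.2% and 3.21% of all genes, and edgeR called none in F4MKO against Flox (6 at an unadjusted p under 0.05) or in F4MKO + FSTL1 against Flox (11 at an unadjusted p under 0.05, and 1 called by DESeq2). Over all 14379 genes, an unadjusted p under 0.05 was reached by 2424 in F4MKO against Flox and by 1924 in F4MKO + FSTL1 against Flox. Of 19 interferon genes only 5 had a row used here, all near 0. Ifng had 0 to 4 counts per library, and Ifnb1, Ifna13, Ifnk and Ifnz had at most 1, so none of these 5 was tested. Of the receptors, the lambda chain Ifnlr1 fell by 2.43 on the log2 scale (SE 0.52, edgeR adjusted p = 0.00807) from low levels of 0.990, 0.963 and 0.479 CPM to 0.280, 0.0961 and 0.0522 CPM. Its counts were 7, 6 and 7 in Flox, 28, 23 and 12 in F4MKO, and 6, 2 and 1 in F4MKO + FSTL1. Ifnlr1 thus had enough reads to be tested only through F4MKO, where it was high, so its call is not independent of that filter. The gamma chain Ifngr1 fell by 0.71 on the log2 scale (SE 0.10, edgeR adjusted p = 0.00154), whereas the type I chain Ifnar1 was at 0.05 ± 0.09 SE. Of the endosomal and cytosolic sensing genes, Tlr9, Tlr8, Tlr7 and Tmem173, which encodes STING, fell by 2.12, 1.24, 1.04 and 1.01 on the log2 scale. Tlr9, too, had enough reads to be tested only through F4MKO. Against Flox, log2 fold changes of Ifnlr1, Ifngr1, Tlr9, Tlr8, Tlr7 and Tmem173 were 1.48, 0.34, 1.25, 0.66, 0.34 and 0.53 in F4MKO. In F4MKO + FSTL1 they were -0.96, -0.36, -0.86, -0.58, -0.70 and -0.48 against Flox, and edgeR called none of them in either group.

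Irf9, the DNA-binding partner of STAT2, did not pass the test in F4MKO + FSTL1 against F4MKO, at 0.04 ± 0.12 SE (edgeR adjusted p = 0.85), beside the -0.06 of Stat2. Among the interferon regulatory factors, Irf8, a factor of myeloid cells, fell by 0.96 on the log2 scale (edgeR adjusted p = 0.00491), and Irf2, which competes with IRF1 at the same sites, rose by 0.68 (edgeR adjusted p = 0.00228). Against Flox, Irf8 was at 0.38 in F4MKO and -0.58 in F4MKO + FSTL1, and Irf2 at -0.22 and 0.46, none of them called by edgeR. Irf7, the amplifier of type I interferon genes, was at 66.0, 46.7 and 89.2 CPM in F4MKO and 37.9, 33.3 and 53.8 CPM in F4MKO + FSTL1 (-0.69 ± 0.26 SE, edgeR adjusted p = 0.082).

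Markers of several liver cell types were also lower in F4MKO + FSTL1 than in F4MKO. In that comparison 11.2% of all genes were called lower and 5080 of all 14379 reached an unadjusted p under 0.05. In F4MKO against Flox, 3 of 65 tested markers were called higher, 1 of macrophages and 2 of cholangiocytes, and 0 of the 36 genes. Over all genes, 0.271% were called there in either direction. The marker log2 fold changes lay above 0 for 41 and below it for 24, with a median of 0.32, beside 0.04 for the 36 genes. Sums over 10 monocyte-derived macrophage markers were 118 to 156 CPM in Flox, 174 to 274 CPM in F4MKO and 71.8 to 95.7 CPM in F4MKO + FSTL1, and all 10 were called lower in F4MKO + FSTL1 against F4MKO. Of 7 stellate cell and fibroblast markers 6 were called lower, with sums of 401 to 471, 542 to 700 and 260 to 364 CPM in the same order of groups. Cholangiocyte markers summed to 50.7 to 88.9, 160 to 430 and 36.1 to 53.8 CPM, with 4 of 5 called lower. Kupffer cell markers (1 of 5 called lower, with 2 of the 5 log2 fold changes above 0) summed to 302 to 517, 271 to 391 and 174 to 297 CPM. B cell markers (1 of 5 called lower) summed to 8.89 to 11.4, 7.12 to 13.8 and 4.02 to 8.51 CPM. Plasmacytoid dendritic cell markers, of the cells known for the most type I interferon, summed to 14.0 to 16.3, 15.3 to 19.1 and 12.8 to 16.6 CPM, with 2 of 4 tested called lower. T cell sums were 3.33 to 4.59, 4.69 to 7.78 and 2.48 to 6.06 CPM, with 0 of 5 tested called by edgeR and 2 at an unadjusted p under 0.05. Neutrophil markers (1 of 3 tested called lower) summed to 7.99 to 9.18, 10.6 to 15.03 and 5.05 to 7.78 CPM, so that they too were lowest in the 3 F4MKO + FSTL1 libraries. Conventional dendritic cell markers (1 of 5 called lower) summed to 11.9 to 13.03, 12.2 to 16.6 and 10.7 to 13.6 CPM. Natural killer cell markers summed to 2.79 to 5.44, 2.64 to 5.87 and 1.54 to 5.69 CPM, with 0 of 3 tested called and 1 at an unadjusted p under 0.05. Endothelial markers, with sums of 227 to 286, 170 to 231 and 204 to 253 CPM, had 0 of 7 called, 2 at an unadjusted p under 0.05 and a median log2 fold change of 0.04. The hepatocyte markers had 0 of 5 called and 2 at an unadjusted p under 0.05. Their median log2 fold change was 0.32, with 4 above 0 and 1 below. The part of these cell types in the interferon-stimulated values was not tested. By staining, the paper describes fewer Kupffer cells in F4MKO than in control liver, and more after FSTL1 delivery. It describes the same order for fibrosis gene mRNA by QPCR. The macrophage and stellate cell sums ran the other way here, highest in F4MKO and lowest in F4MKO + FSTL1. These measures differ, and the reason was not tested.

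**Figure D4:**
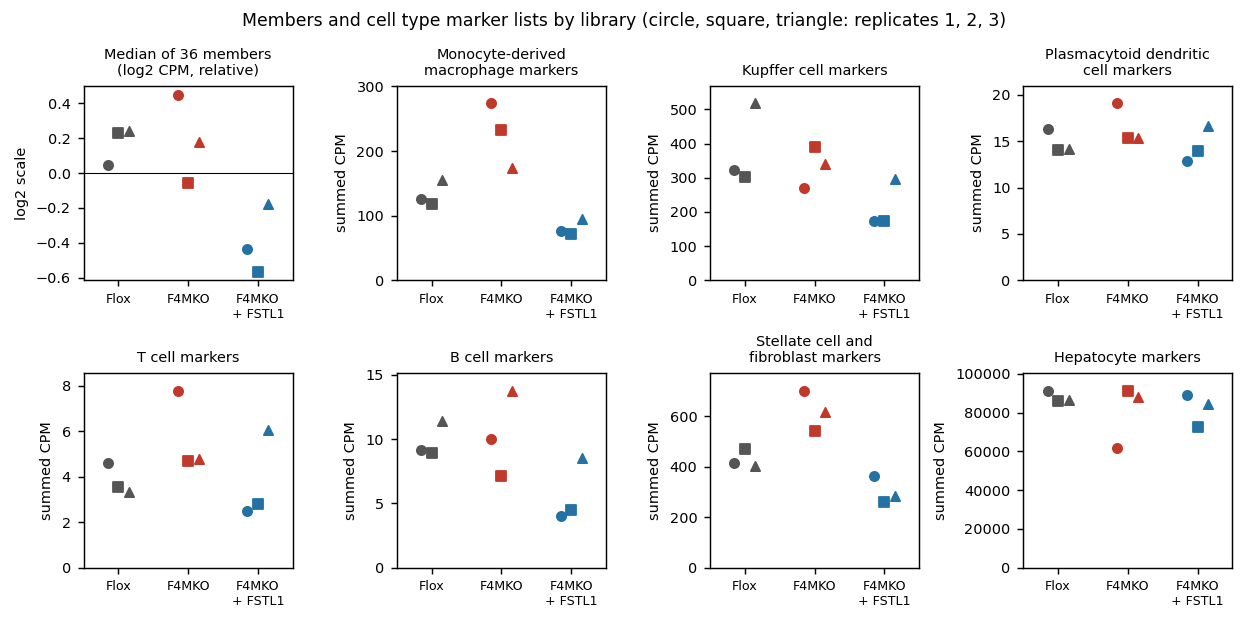
Median of the 36 genes (log2 CPM relative to the mean of the 9 libraries) and summed CPM of 7 marker lists, by library. The median was lowest in the 3 F4MKO + FSTL1 libraries (-0.43, -0.56 and -0.18), which also had the lowest macrophage marker sums (71.8 to 95.7 CPM).

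The median of the 36 genes per library was 0.04, 0.23 and 0.24 in Flox, 0.45, -0.06 and 0.18 in F4MKO and -0.43, -0.56 and -0.18 in F4MKO + FSTL1, on a log2 scale relative to the mean of the 9 libraries. F4MKO replicate 1 was the highest library in both this median and the macrophage marker sum (274 CPM). Within F4MKO + FSTL1 both were ordered alike, with sums of 77.1, 71.8 and 95.7 CPM for replicates 1 to 3. In F4MKO replicates 2 and 3 the order differed, at sums of 232 and 174 CPM. It also differed in Flox, with sums of 126, 118 and 156 CPM for replicates 1 to 3, where replicate 1 had the lowest median. Flox replicates 2 and 3 had higher medians than F4MKO replicates 2 and 3, at lower sums.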

How the data were processed

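Reads of 150 bp (BGIseq500, paired) were trimmed with Trim Galore 0.6.7, aligned to mm10 with HISAT2 2.2.1 and counted per gene with featureCounts 2.0.1, as named in the submitters' processing notes. The authors deposited the counts as whole numbers per gene and library, without normalisation. Each of the 24008 genes listed had counts in some library, so genes without any count seem to have been left out. A gene without a row may therefore have had no counts. The annotation, use of strand and treatment of reads with several matches are not given in the sources used here.

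The 9 libraries held 20656976 to 24322984 counts each, and edgeR 4.0.16 (R 4.3.3) was used for the main tests. Genes passing filterByExpr (minimum count 10, minimum total 15) were kept, library sizes were normalised by TMM (factors 0.927 to 1.17), and 1 model of group means, fitted by quasi-likelihood, gave the 3 comparisons. A gene was called at an adjusted p under 0.05 (Benjamini-Hochberg over all 14379 genes) and a fold change above 1.5. Values are CPM, and levels per kilobase used GENCODE exon lengths.

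The 37 genes, the pathway, interferon-stimulated and marker lists, and the naming rule were chosen with earlier results of these data known. Every gene of the 37 was named, with full values for the 6 largest falls and rises called per comparison, for 13 anchor genes across the roles and, where under 3 were called, for the 3 highest and 3 lowest log2 fold changes. From the pathway list came up to 8 called genes by size and 6 fixed ones (1 of them is not reported here), from the other interferon-stimulated genes the 5 with the largest change and Psmb8. Alternatives were DESeq2 1.42.0, its size factors in edgeR, no filter, only the libraries compared, a replicate block, other call rules and leaving out each library.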

Additional observations from a re-analysis of the deposited data

How the results depend on the processing

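Of the counts of interferon-stimulated genes called in F4MKO + FSTL1 against F4MKO (13), none of DESeq2, its size factors, no filter, only the 6 libraries compared or no fold threshold moved it by over 1.5 times. The test against a fold change of 1.5 gave 3, with 2 pathway genes, 3 other interferon-stimulated genes and 620 of all genes. Leaving out 1 library gave 8 to 16 of the 37 genes, 8 to 23 other interferon-stimulated genes, 1295 to 2216 of all genes (2070 with every library) and medians of -0.71 to -0.37. Against Flox, F4MKO + FSTL1 had 9 calls by DESeq2 and 11 with no filter, with 1 and 1 pathway genes and 8 and 8 other interferon-stimulated genes. Leaving out 1 library gave 0 to 2, 0 to 1 others, and medians of -0.70 to -0.41. Over all genes this comparison had 1 call, against 284 by DESeq2, 2 with its size factors, 379 with no filter, 0 with 6 libraries, 0 in the test against 1.5 and 0 to 101 leaving out 1 library. F4MKO against Flox had 39 over all genes, against 338 by DESeq2, 478 with no filter, 11 with 6 libraries, 0 in the test against 1.5 and 0 to 100 leaving out 1 library, and no filter gave 2 other interferon-stimulated genes. With the replicate block the 13 calls were the same genes, and all-gene calls were 134 for F4MKO against Flox and 15 for F4MKO + FSTL1 against Flox. Same-numbered samples of F4MKO and F4MKO + FSTL1 correlated at 0.111, 0.0919 and 0.304 after subtraction of group means, each best with its own number. For F4MKO and Flox the values were 0.0818, 0.0422 and 0.169, each best with its own number except Flox replicate 2. For F4MKO + FSTL1 and Flox they were 0.000772, -0.0985 and 0.206, with only replicate 3 best. Since the match did not hold in every comparison, the numbers were not taken as pairs. Signs turned where values were near 0 or 1 library decided them: against Flox, Iigp1 in F4MKO + FSTL1 was 0.00023 by DESeq2 and ran from -0.059 to 0.044, and Ifi35 from -0.14 to 0.12. Rsad2 in F4MKO ran from -0.19 to 0.93. Against F4MKO, Ifit1 ran from -0.71 to 0.014, Stat2 from -0.18 to 0.052, Irf9 from -0.034 to 0.17, Ifi27 from -0.71 to 0.17 and Tap1 from -0.31 to 1.06. The causes were not tested. The 3 samples per group and low counts of many of the genes limit what could be detected, and a missed threshold does not show equal levels.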

Other observations

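A further 79 interferon-stimulated genes outside the 37 were examined, of which 77 had a row and 72 were tested. In F4MKO + FSTL1 against F4MKO 21 were called lower (29.2%) and 1 higher (1.39%), beside 11.2% and 3.21% of all genes, and 61 of the 72 log2 fold changes were below 0, with a median of -0.28. The GTPase Tgtp1 fell by 1.75 on the log2 scale, from 6.30, 3.60 and 3.51 CPM in F4MKO to 1.12, 1.11 and 1.78 CPM in F4MKO + FSTL1 (edgeR adjusted p = 0.00503). Mx1, a gene of the dynamin-like GTPases, fell by 1.32 (edgeR adjusted p = 0.0157), from 4.21, 2.43 and 4.59 CPM to 1.03, 1.15 and 2.35 CPM. The call of Mx1 was lost in 3 of the 9 fits that each left out 1 library (log2 fold changes from -1.77 to -1.10). Slfn2 and Ms4a4c both fell by 1.31 on the log2 scale, and the call of Ms4a4c was lost in 2 of the 9 fits. The total of 22 calls dropped to 10 without F4MKO replicate 1 and to 8 without F4MKO + FSTL1 replicate 2. Over all genes the same fits gave 1335 and 1295 calls, against 2070 with every library.

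Psmb9, an interferon-inducible subunit of the immunoproteasome, was called in the other direction, at 1.20, 0.796 and 2.28 CPM in F4MKO and 6.03, 4.23 and 6.22 CPM in F4MKO + FSTL1 (log2 fold change 1.94 ± 0.58 SE, edgeR adjusted p = 0.0346). Its Flox values, 5.71, 8.93 and 1.20 CPM, spanned both groups, and the call was lost in 5 of the 9 fits that each left out 1 library. Psmb8, its partner subunit, was at 0.46 ± 0.41 SE (edgeR adjusted p = 0.45). Psmb9 overlaps Tap1, and F4MKO + FSTL1 replicate 1 had the highest Tap1 value of that group, 1.96 CPM. Against Flox, 66 of the 72 genes were below 0 in F4MKO + FSTL1, with a median of -0.33 and 0 called by edgeR, 30 at an unadjusted p under 0.05 and 8 called by DESeq2. Of all 14379 genes, 1924 were at an unadjusted p under 0.05 in that comparison.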
